A study of Mus musculus with 46 samples.

Results

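The question here was which transcripts of AgRP neurons changed when fasted mice were given leptin. The libraries compared were the 4 from fasted, vehicle-treated mice and the 4 from fasted, leptin-treated mice of the AgRP TRAP RNA-seq, chosen by their sample labels, which makes 8 of 46 samples of the series. The mice were male C57BL/6J animals of 6 to 11 weeks that carried the NuTRAP allele, a GFP-tagged L10a ribosomal subunit switched on by Cre, and AgRP-IRES-Cre, and both groups shared these alleles. All of these mice were fasted overnight for 18 to 20 h and injected i.p. with PBS or with 5 mg/kg leptin, and the arcuate nucleus (ARC) was taken 3 h later. Each library came from the ARCs of 4 pooled mice, so that no value belongs to a single animal. RNA on tagged ribosomes was pulled down with an antibody to GFP (TRAP), depleted of rRNA and sequenced without strand information, so that reads of genes that overlap on opposite strands cannot be told apart.

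AgRP neurons of the arcuate nucleus drive feeding when energy stores are low, and leptin, the hormone that fat tissue releases in proportion to its stores, acts on them through a receptor that signals by the kinase JAK2 and the transcription factor STAT3. Activated STAT3 binds DNA, typically at a palindrome of TTC and GAA, and raises its own inhibitors of the SOCS family along with genes that the liver uses in the acute phase response. AgRP neurons release AgRP, NPY and GABA, fire more during a fast and respond to leptin within hours.

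Between 29901460 and 54511107 reads per library were counted on genes. Levels are CPM, read counts set relative to library size with TMM scaling, and 4 values in a row are those of replicates 1 to 4 (fed libraries are replicates 1, 3 and 4). The test, the quasi-likelihood F test of edgeR, covered 13401 genes that averaged more than 1 CPM, and the 3 fed libraries helped to estimate the spread. The fed mice, of the same line and age, had chow throughout and were injected with PBS 3 h before the ARC was taken. P-values were adjusted over all genes by the Benjamini-Hochberg method and are given as the FDR. A gene was called, and is said here to have risen or fallen, where the FDR was under 0.05 and the log2 fold change exceeded 0.5 in size. Calls of single genes described below were repeated in up to 11 fits that each left out 1 library, and where a call was lost the libraries are named. These fits had no block for the replicate number. With all libraries, the block ended the call of 1 of 84 named genes. The labelled cells were checked by their markers. Per length, *Npy* (3544 RPKM in fasted and 3259 RPKM in leptin-treated mice) and *Agrp* (974 RPKM in fasted and 899 RPKM in leptin-treated mice) were the most abundant of the genes described here. The summed level of 9 astrocyte markers lay between 2892 and 4377 CPM in 6 of the 8 libraries and reached 28340 CPM in fasted and 27730 CPM in leptin replicate 4, so these 2 libraries stand apart. Most of that sum was *Slc1a2*, a glutamate transporter, at 27270 and 26650 CPM in the replicates 4 against 2384 to 3716 CPM in the other 6. *Aqp4*, *Slc1a3*, *Gja1*, *Sox9* and *S100b* were also higher in both replicates 4 than in the other 6 libraries, whereas *Gfap*, *Aldh1l1* and *Agt* were not. All 9 astrocyte markers had a log2 fold change above 0 (median 0.10), and 0 were called.

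Leptin raised 160 genes (1.19% of those tested) and lowered 85 (0.634%). These 2 shares are the background for every count of list members given below. In bulk RNA, a change in the number of cells that carry a transcript and a change in RNA per cell cannot be told apart. The increases were larger than the decreases, with a median log2 fold change of 0.96 for the genes that rose and of -0.75 for those that fell, against -0.01 for all genes tested. A fold change above 2 was reached by 75 genes that rose and by 25 that fell. All 4 leptin libraries lay above all 4 fasted libraries for 159 of the 160 genes that rose, *Fgl2* being the exception (its call was lost in 8 of 11 fits, without fasted replicates 2, 3 and 4, fed replicates 1 and 3 or leptin replicates 1, 2 and 3, at an FDR of up to 0.137), and below them for all 85 that fell. Such separation was found for 3.24% of all genes tested upward and 2.92% downward. Nearly all called genes show it, and the genes with the largest changes were chosen by it. Where separation is stated for single genes below, it describes them and is no further test of their calls. With the replicate number as a block, 242 genes (1.81%) rose and 148 (1.1%) fell, and without the libraries numbered 4 in any state, a choice made after seeing the data, the counts were 235 and 97.

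**Figure D1:**
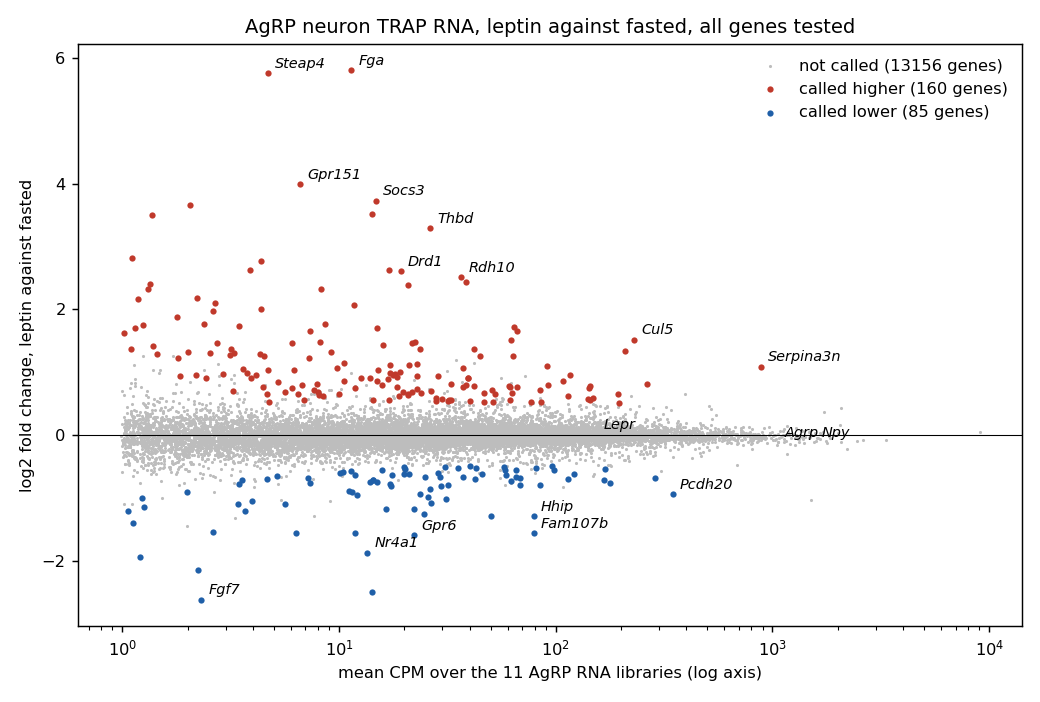
Mean CPM over the 11 AgRP RNA libraries (x axis, log scale) against the log2 fold change of leptin against fasted (y axis) for the 13401 genes tested, 1 point a gene. The 160 genes that rose (red) reach further from 0 than the 85 that fell (blue), and *Agrp*, *Npy* and *Lepr* sit near 0.

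The response was present in each pair of same-numbered libraries. Over the 160 genes that rose, the median log2 ratio of leptin to fasted was 1.03, 0.94, 1.12 and 0.72 in replicates 1, 2, 3 and 4, and over the 85 that fell it was -0.83, -0.67, -0.71 and -0.86. The smallest median increase was that of replicate 4, the pair with the high *Slc1a2* level, whose part in it was not tested. These genes were called on the same libraries, so the ratios describe how even the response was and are no test of it.

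The promoters of 6 genes that rose strongly and of 2 that fell are shown because their windows hold the letters of a site for STAT factors or for CREB-type factors. Each line gives the 250 bases before the RefSeq start site (GRCm38.p6) in the direction of the gene, with the match to TTCNNNGAA in capitals for the first 6 genes and the match to TGACGTCA in capitals for *Gpr6* and *Hhip*.
Fga, chr3:83025903-83026152, plus strand: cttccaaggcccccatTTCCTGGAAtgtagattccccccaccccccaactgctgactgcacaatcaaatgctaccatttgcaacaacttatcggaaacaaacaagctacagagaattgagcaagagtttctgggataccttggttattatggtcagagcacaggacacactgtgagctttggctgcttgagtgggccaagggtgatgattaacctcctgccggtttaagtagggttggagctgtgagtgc
Steap4, chr5:7960222-7960471, plus strand: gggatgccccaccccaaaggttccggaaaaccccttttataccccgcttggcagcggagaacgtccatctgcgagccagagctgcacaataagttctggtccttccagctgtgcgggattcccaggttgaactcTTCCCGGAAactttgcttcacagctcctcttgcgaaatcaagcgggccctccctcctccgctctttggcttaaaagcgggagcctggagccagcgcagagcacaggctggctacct
Socs3, chr11:117969367-117969616, minus strand: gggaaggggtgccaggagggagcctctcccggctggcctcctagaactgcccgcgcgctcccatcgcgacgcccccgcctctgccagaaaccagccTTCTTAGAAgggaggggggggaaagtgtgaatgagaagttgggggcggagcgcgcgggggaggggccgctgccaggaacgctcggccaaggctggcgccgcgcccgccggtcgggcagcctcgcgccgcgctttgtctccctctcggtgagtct
Serpina3g, chr12:104235897-104236146, plus strand: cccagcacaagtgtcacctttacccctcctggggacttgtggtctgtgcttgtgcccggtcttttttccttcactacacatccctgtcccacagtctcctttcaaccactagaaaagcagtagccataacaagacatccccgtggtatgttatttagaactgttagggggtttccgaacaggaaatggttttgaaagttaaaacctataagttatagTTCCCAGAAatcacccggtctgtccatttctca
Fgb, chr3:83049864-83050113, minus strand: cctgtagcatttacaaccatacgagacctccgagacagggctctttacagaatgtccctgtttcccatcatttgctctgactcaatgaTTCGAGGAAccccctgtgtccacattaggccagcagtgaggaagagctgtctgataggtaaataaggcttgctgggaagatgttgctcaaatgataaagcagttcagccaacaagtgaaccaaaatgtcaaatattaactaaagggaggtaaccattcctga
Serpina3i, chr12:104262872-104263121, plus strand: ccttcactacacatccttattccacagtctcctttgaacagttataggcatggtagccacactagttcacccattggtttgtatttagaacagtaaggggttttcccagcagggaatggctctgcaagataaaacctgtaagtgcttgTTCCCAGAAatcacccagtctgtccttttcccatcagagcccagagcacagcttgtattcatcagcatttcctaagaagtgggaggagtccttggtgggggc
Gpr6, chr10:41072291-41072540, minus strand: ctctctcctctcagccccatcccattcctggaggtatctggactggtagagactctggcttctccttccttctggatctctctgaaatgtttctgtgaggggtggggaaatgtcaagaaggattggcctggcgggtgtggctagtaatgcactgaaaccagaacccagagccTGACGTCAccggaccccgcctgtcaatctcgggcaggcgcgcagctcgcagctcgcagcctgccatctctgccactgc
Hhip, chr8:80058009-80058258, minus strand: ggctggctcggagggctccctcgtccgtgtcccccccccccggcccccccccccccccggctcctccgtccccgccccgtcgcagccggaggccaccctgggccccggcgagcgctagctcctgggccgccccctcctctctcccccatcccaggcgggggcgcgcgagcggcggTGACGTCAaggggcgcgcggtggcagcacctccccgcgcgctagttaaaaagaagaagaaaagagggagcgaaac

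Counted back from the start site, the matches began at base -234 in *Fga*, -116 in *Steap4*, -154 in *Socs3*, -33 in *Serpina3g*, -162 in *Fgb* and -102 in *Serpina3i*. The RefSeq start of *Socs3* lies downstream of its GENCODE start, so its printed bases are inside the GENCODE span of the gene. Those of *Fga* and *Steap4* overlap their GENCODE spans in part. *Serpina3g* and *Serpina3i*, neighbours in a gene cluster of chromosome 12, hold the same 9 bases, TTCCCAGAA. The TGACGTCA matches began at -78 in *Gpr6* and -75 in *Hhip*. In windows that also take in 50 bases after the start, TTCNNNGAA on either strand was found for 819 of the 9914 tested genes with a RefSeq window (8.26%), and for 22 of 118 genes that rose (18.6%) and 3 of 69 that fell (4.35%). The stricter TTCCNGGAA, which is contained in TTCNNNGAA, was found for 1.56% of the tested genes, 8 genes that rose (6.78%) and 0 that fell. TGACGTCA was found for 3.6% of the tested genes, 1 gene that rose and 7 that fell (10.1%). Only 9914 of 13401 tested genes and 118 of 160 that rose had a window, under 80%, so a comparison of these shares is void and they are given as a description. A match to these letters is not a bound site.

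The relay of the leptin receptor was examined first. *Lepr*, the receptor itself, was at 194, 158, 211 and 159 CPM in fasted and 202, 175, 229 and 122.72 CPM in leptin libraries (log2 fold change 0.01, SE 0.28, FDR = 1.00). The groups overlapped, and *Lepr* was not called. *Jak2*, the kinase bound to the receptor, was at 40.3, 38.4, 35.1 and 40.7 CPM in fasted and 64.3, 52.6, 51.0 and 54.0 CPM in leptin libraries (log2 fold change 0.52, SE 0.09, FDR = 0.0136), with no overlap. *Stat3* was at 263, 216, 285 and 232 CPM in fasted and 330.5, 341, 402 and 260.0 CPM in leptin libraries (log2 fold change 0.42, SE 0.14, FDR = 0.267). It was not called, also not with the block, where its FDR was 0.0026 and its log2 fold change of 0.42 stayed under the threshold of 0.5.

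*Stat2*, which works with IRF9 in the interferon-activated factor ISGF3, was at 6.04, 7.67, 6.60 and 7.13 CPM in fasted and 19.4, 13.7, 13.6 and 13.8 CPM in leptin libraries (log2 fold change 1.14, SE 0.14, FDR = 0.00158). Replicate 1 of the leptin group was the highest, and every leptin library was above every fasted one. *Il6st*, the gp130 subunit shared by receptors of the IL-6 family, rose by 0.51 on the log2 scale. Of the 14 relay genes tested, these 3 rose and 0 fell, with a median log2 fold change of 0.05. The call of *Il6st* was lost in 9 of 11 fits (without fasted replicates 1, 2 and 3, leptin replicates 1, 2, 3 and 4 or fed replicates 1 and 3, log2 fold change 0.43 to 0.54, FDR up to 0.129). That of *Jak2* was lost in 2 of 11 fits (without fasted replicate 3 or leptin replicate 1, log2 fold change 0.44 to 0.49, FDR up to 0.0544).

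Inhibitors of the same pathway were examined next. *Socs3*, which binds the activated receptor and JAK2, lies at chr11:117966079-117970047, minus strand (GRCm38), and its libraries were at 2.72, 2.55, 2.40 and 1.79 CPM in fasted and 35.7, 30.7, 35.5 and 23.9 CPM in leptin libraries (log2 fold change 3.73, SE 0.25, FDR = 3.62e-05). The lowest leptin library was more than 8-fold above the highest fasted library. The fed libraries stood in between, at 9.06, 12.996 and 5.89 CPM, in the order leptin, fed, fasted with no overlap.

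*Socs2* was at 12.0, 12.7, 10.6 and 15.6 CPM in fasted and 41.4, 29.3, 37.4 and 31.5 CPM in leptin libraries (log2 fold change 1.46, SE 0.15, FDR = 0.000546). *Socs1* was at 1.54, 1.31, 1.50 and 1.57 CPM in fasted and 4.32, 2.89, 4.22 and 3.22 CPM in leptin libraries (log2 fold change 1.31, SE 0.17, FDR = 0.00183), a low transcript throughout. *Ptpn1*, the phosphatase PTP1B that removes phosphate from JAK2, was at 44.7, 42.7, 46.9 and 47.4 CPM in fasted and 66.4, 63.5, 73.0 and 56.7 CPM in leptin libraries (log2 fold change 0.52, SE 0.08, FDR = 0.00724). In these 3 genes each leptin library exceeded each fasted one. Per length, *Ptpn1* remained the most abundant of the 4 inhibitors, at 10.5 RPKM in fasted and 14.97 RPKM in leptin-treated mice, above *Socs3* at 0.868 RPKM in fasted and 11.6 RPKM in leptin-treated mice.

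*Ptpn2*, the related phosphatase TCPTP, was between 10.8 and 15.4 CPM in fasted and between 12.2 and 18.9 CPM in leptin-treated libraries (log2 fold change 0.27, SE 0.15, FDR = 0.752) and was not called. *Cish* was called with the block only (log2 fold change 0.74, FDR = 0.00900). Of 12 inhibitors tested, 4 rose and 0 fell, with a median log2 fold change of 0.23. The call of *Ptpn1* was lost in 2 of 11 fits (without fasted replicate 2 or leptin replicate 3, log2 fold change 0.45 to 0.49, FDR up to 0.0286). *Sh2b1*, an adaptor of JAK2, was between 53.8 and 59.7 CPM in fasted and between 52.2 and 64.2 CPM in leptin-treated libraries (log2 fold change -0.04, SE 0.08, FDR = 1.00).

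*Cul5*, the cullin scaffold on which SOCS-box proteins build ubiquitin ligases, was among the abundant genes with the largest increases. It was at 155, 144, 141 and 119.9 CPM in fasted and 522, 353, 483 and 244 CPM in leptin libraries (log2 fold change 1.52, SE 0.20, FDR = 0.00246). The fed libraries, at 128, 125 and 114 CPM, overlapped with the fasted ones.

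Acute phase genes and known targets of STAT3 had the highest median of the 25 lists examined. Of 28 listed, 19 were tested, and 12 of them rose, 0 fell and all 19 had a log2 fold change above 0, with a median of 1.29. The list was drawn up with results of these libraries known and is no independent evidence of its direction. *Fga*, which encodes the alpha chain of the clotting protein fibrinogen, was at 0.815, 0.538, 0.392 and 0.475 CPM in fasted and 28.1, 20.7, 62.2 and 11.9 CPM in leptin libraries (log2 fold change 5.80, SE 0.55, FDR = 0.000361). *Fgb*, the beta chain, was at 0.392, 0.279, 0.370 and 0.146 CPM in fasted and 4.75, 1.76, 5.11 and 2.21 CPM in leptin libraries (log2 fold change 3.50, SE 0.43, FDR = 0.00104). Both were close to absent without leptin, *Fga* with between 13 and 27 reads in fasted and between 377 and 3362 in leptin-treated libraries and *Fgb* with between 4 and 17 reads in fasted and between 70 and 276 in leptin-treated libraries.

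*Steap4*, a metalloreductase that handles iron and copper, was at 0.242, 0.378, 0.196 and 0.0366 CPM in fasted and 18.5, 8.58, 17.4 and 5.58 CPM in leptin libraries (log2 fold change 5.75, SE 0.53, FDR = 0.000342), with between 1 and 19 reads in fasted and between 177 and 943 in leptin-treated libraries. *Timp1*, an inhibitor of matrix metalloproteinases, was at 2.51, 1.29, 0.959 and 1.13 CPM in fasted and 8.43, 9.31, 13.7 and 8.29 CPM in leptin libraries (log2 fold change 2.76, SE 0.34, FDR = 0.00158). *Sbno2*, a transcriptional co-regulator downstream of STAT3 in macrophages, was at 13.8, 14.04, 12.8 and 15.3 CPM in fasted and 79.4, 66.0, 84.6 and 71.3 CPM in leptin libraries (log2 fold change 2.43, SE 0.13, FDR = 9.39e-06). *Sbno2* varied little within each group, and its ratio in same-numbered pairs ran only from 4.66- to 6.59-fold.

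The *Serpina3* genes encode secreted inhibitors of serine proteases and lie in a cluster of near copies, so that reads may have been split between them and each member is uncertain. *Serpina3g* was at 3.92, 2.69, 2.05 and 3.07 CPM in fasted and 32.3, 24.9, 58.1 and 17.9 CPM in leptin libraries (log2 fold change 3.51, SE 0.37, FDR = 0.000576). *Serpina3i* was at 6.76, 4.54, 4.79 and 6.33 CPM in fasted and 34.1, 31.8, 42.0 and 29.5 CPM in leptin libraries (log2 fold change 2.62, SE 0.19, FDR = 6.29e-05). *Serpina3h* (log2 fold change 2.01) and *Serpina3c* (1.37) rose as well. *Serpina3n*, by far the most abundant of the cluster, was at 622, 624, 694 and 633 CPM in fasted and 946, 1288, 2220.3 and 996 CPM in leptin libraries (log2 fold change 1.08, SE 0.24, FDR = 0.0423), from a high starting level. The call of *Serpina3n* was lost in 8 of 11 fits (without fasted replicates 1, 2, 3 and 4, leptin replicate 2 or fed replicates 1, 3 and 4, log2 fold change 1.07 to 1.13, FDR up to 0.130). That of *Serpina3c* was lost in 3 of 11 fits (without fasted replicates 2 and 3 or leptin replicate 1, log2 fold change 1.25 to 1.37, FDR up to 0.0703).

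Since liver, vessels, blood, microglia and astrocytes also express genes of this group, their markers were set beside it. None of the markers tested of these 5 cell types was called, namely 2 of hepatocytes, 10 of endothelial and mural cells, 2 of blood cells, 6 of microglia and 9 of astrocytes. The summed hepatocyte markers lay between 2.19 and 14.6 CPM in fasted and between 1.42 and 17.4 CPM in leptin-treated libraries, with *Apoa2* at 0 in all 8. *Alb* was at 4.08 and 5.71 CPM in fasted and 5.17 and 4.63 CPM in leptin replicates 2 and 3. In replicates 1 and 4 of both groups *Alb* was at most 0.0366 CPM, and *Ttr* made up most of the sum. The source of this pattern was not tested. Microglial markers summed to 20.01 to 44.7 CPM and 21.9 to 41.9 CPM, and endothelial and mural markers to 112.6 to 208.8 CPM and 146.5 to 184.6 CPM. Blood cell markers summed to 2.78 to 4.54 CPM and 2.78 to 4.40 CPM, with *S100a8* and *S100a9* at 0 in all 8. Tanycyte and ependymal markers summed to 109.3 to 267.3 CPM and 137.6 to 222.8 CPM, and 0 of the 8 tested were called, but with the block *Vim*, an intermediate filament of glia, was called higher. *Vim* was at 56.4, 48.3, 53.4 and 38.3 CPM in fasted and 69.7, 74.5, 81.7 and 65.7 CPM in leptin libraries (log2 fold change 0.57, SE 0.15, FDR = 0.0847, and with the block log2 fold change 0.57, FDR = 0.00135), with no overlap. Without the libraries numbered 4, the log2 fold changes of *Fga*, *Steap4*, *Timp1* and *Sbno2* were 6.04, 5.72, 2.78 and 2.50, and all 4 were called. A marker that stays level cannot show whether cells of its type raised other genes. Leaving out libraries cannot show this either, so which cells carried these increases was not tested.

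**Figure D2:**
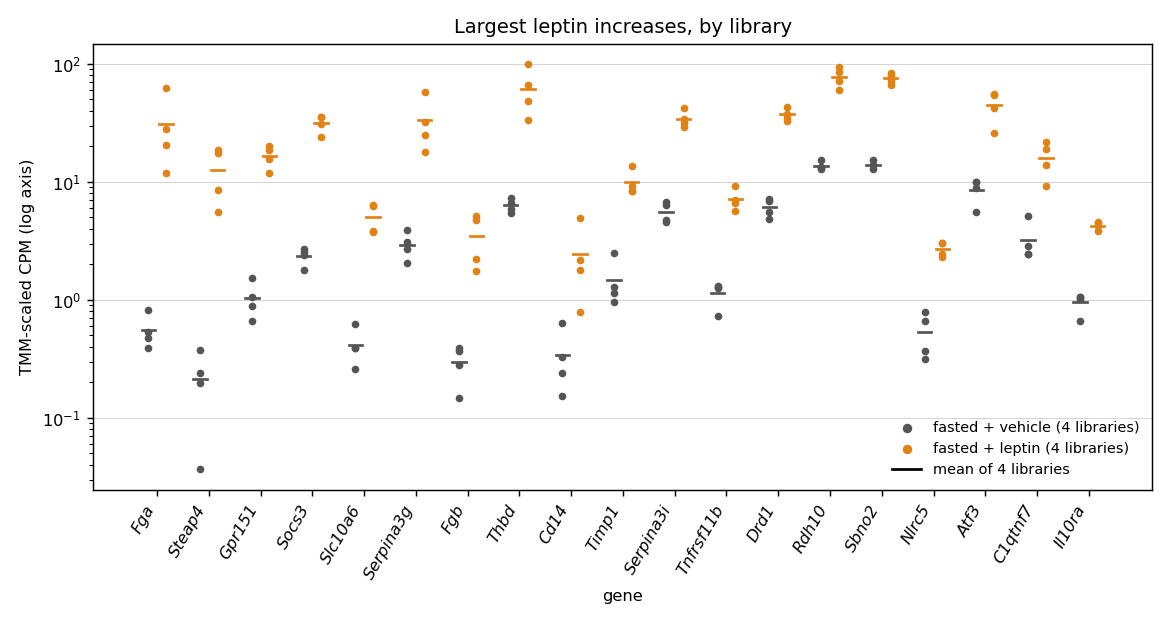
TMM-scaled CPM (y axis, log scale) in each of the 4 fasted (grey) and 4 leptin-treated (orange) libraries for 19 of the 20 genes with the largest increase, with bars at the means of 4. The genes were chosen among those without overlap of the groups, and the gap runs from *Cd14*, where the groups come close (0.637 against 0.788 CPM), to *Fga* and *Steap4*, where they are over 10-fold apart.

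Other genes among the 20 largest increases encode receptors, an enzyme and membrane proteins. *Gpr151*, an orphan G protein-coupled receptor, was at 1.54, 1.06, 0.893 and 0.658 CPM in fasted and 18.7, 15.5, 20.1 and 11.8 CPM in leptin libraries (log2 fold change 3.99, SE 0.26, FDR = 2.84e-05). *Drd1*, the D1 dopamine receptor, was at 6.94, 7.17, 4.82 and 5.60 CPM in fasted and 43.5, 35.0, 37.98 and 32.7 CPM in leptin libraries (log2 fold change 2.60, SE 0.16, FDR = 2.01e-05). Neither gene had overlapping groups. *Drd1* in fed libraries was at 13.5, 14.2 and 10.6 CPM, between the other groups, while *Gpr151* in fed libraries was at 0.971, 0.753 and 0.710 CPM, among the fasted values.

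*Rdh10*, the retinol dehydrogenase that starts the synthesis of retinoic acid, was at 15.2, 13.001, 12.9 and 13.5 CPM in fasted and 93.5, 72.1, 86.1 and 60.3 CPM in leptin libraries (log2 fold change 2.51, SE 0.14, FDR = 9.39e-06). *Thbd*, thrombomodulin, the thrombin receptor best known from endothelium, was at 6.64, 5.46, 7.30 and 5.89 CPM in fasted and 66.1, 48.2, 99.3 and 33.4 CPM in leptin libraries (log2 fold change 3.29, SE 0.32, FDR = 0.000411). *Slc10a6*, a carrier of steroid sulfates, was at 0.392, 0.259, 0.392 and 0.622 CPM in fasted and 6.36, 3.83, 6.31 and 3.78 CPM in leptin libraries (log2 fold change 3.65, SE 0.35, FDR = 0.000396). The highest leptin value was in replicate 1 for *Rdh10* and *Slc10a6* and in replicate 3 for *Thbd*, and the lowest was in replicate 4 for all 3.

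*Il10ra*, the ligand-binding chain of the IL-10 receptor, was at 1.06, 0.657, 1.07 and 1.02 CPM in fasted and 4.47, 4.54, 4.22 and 3.82 CPM in leptin libraries (log2 fold change 2.17, SE 0.21, FDR = 0.000396). *Cd14*, a co-receptor for lipopolysaccharide, was at 0.242, 0.637, 0.153 and 0.329 CPM in fasted and 2.19, 1.80, 4.98 and 0.788 CPM in leptin libraries (log2 fold change 2.82, SE 0.56, FDR = 0.0240). *Tnfrsf11b*, the decoy receptor osteoprotegerin, was at 1.30, 1.25, 1.31 and 0.731 CPM in fasted and 9.23, 7.07, 6.64 and 5.68 CPM in leptin libraries (log2 fold change 2.62, SE 0.21, FDR = 0.000113). *Il10ra* and *Tnfrsf11b* separated clearly, whereas *Cd14* rested on few reads, between 7 and 32 reads in fasted and between 25 and 269 in leptin-treated libraries, and its call was lost in 3 of 9 fits (without fasted replicates 1, 3 and 4, log2 fold change 2.55 to 2.80, FDR up to 0.0909). *Nlrc5*, which activates MHC class I genes, and *C1qtnf7*, a secreted protein related to complement C1q, rose by 2.40 and 2.32 on the log2 scale.

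*Irf9* was at 16.3, 12.96, 13.3 and 14.96 CPM in fasted and 36.5, 29.2, 34.8 and 25.4 CPM in leptin libraries (log2 fold change 1.13, SE 0.12, FDR = 0.000709), and it was the single gene called among 26 tested of the interferon list, whose median log2 fold change was 0.06 (1 of 26 against 1.19% of all genes tested). *Irf3*, a transcription factor of antiviral defence, was at 5.31, 4.90, 5.38 and 3.55 CPM in fasted and 4.26, 3.85, 4.46 and 2.96 CPM in leptin libraries (log2 fold change -0.30, SE 0.18, FDR = 0.819). The ranges of *Irf3* overlapped, the leptin library was the lower one in all 4 same-numbered pairs (ratios of 0.786 to 0.836), and the gene was not called, also not with the block (log2 fold change -0.30, FDR = 0.0957).

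Among abundant genes, with a mean over 50 CPM, the 8 largest increases included an enzyme, a membrane protein and a synaptic protein. *Gcnt2*, an enzyme that branches glycan chains, was at 47.2, 38.1, 44.0 and 33.5 CPM in fasted and 142, 111, 126 and 84.5 CPM in leptin libraries (log2 fold change 1.51, SE 0.16, FDR = 0.000546). *Cd24a*, a sialoglycoprotein anchored in the membrane, was at 49.9, 30.2, 30.8 and 48.6 CPM in fasted and 136, 99.1, 158 and 106 CPM in leptin libraries (log2 fold change 1.65, SE 0.21, FDR = 0.00194). *Sowahc* was at 35.9, 30.9, 32.2 and 36.2 CPM in fasted and 144, 93.5, 119.8 and 89.5 CPM in leptin libraries (log2 fold change 1.72, SE 0.15, FDR = 0.00024). The 3 genes rose in every pair, *Gcnt2* from 2.52- to 3.00-fold, *Cd24a* from 2.18- to 5.12-fold and *Sowahc* from 2.47- to 4.00-fold.

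*Nptx2*, a neuronal pentraxin that gathers AMPA receptors at synapses, was at 139, 170.3, 166 and 109 CPM in fasted and 277, 379, 585 and 227 CPM in leptin libraries (log2 fold change 1.33, SE 0.27, FDR = 0.0288). It varied widely within the leptin group, and its call was lost in 6 of 11 fits (without fasted replicates 1, 2, 3 and 4, leptin replicate 2 or fed replicate 1, log2 fold change 1.21 to 1.41, FDR up to 0.0975). *Nanos1*, an RNA-binding repressor of translation, was at 74.7, 72.1, 69.7 and 119.7 CPM in fasted and 173, 157, 145 and 178 CPM in leptin libraries (log2 fold change 0.96, SE 0.17, FDR = 0.0114). Fasted replicate 4 of *Nanos1* was above the other fasted libraries and still below every leptin library.

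The immediate early genes, which neurons switch on within minutes of activity, split in direction. Of 32 tested, 3 rose and 5 fell, and the median log2 fold change was -0.02. Over all genes tested 1.19% rose and 0.634% fell. *Jun*, a subunit of AP-1, was at 62.3, 65.9, 64.4 and 62.6 CPM in fasted and 165, 125, 139 and 119 CPM in leptin libraries (log2 fold change 1.10, SE 0.11, FDR = 0.000441). *Atf3*, a stress-induced factor that pairs with JUN, was at 9.93, 8.90, 5.58 and 10.1 CPM in fasted and 54.6, 55.9, 42.2 and 26.2 CPM in leptin libraries (log2 fold change 2.38, SE 0.26, FDR = 0.000756). These 2, with *Nptx2*, were the members that rose.

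*Npas4*, which follows calcium entry into neurons, was at 2.87, 7.03, 3.31 and 3.77 CPM in fasted and 0.648, 0.712, 0.907 and 1.61 CPM in leptin libraries (log2 fold change -2.15, SE 0.35, FDR = 0.00872). *Nr4a1*, an orphan nuclear receptor, was at 21.7, 28.9, 12.8 and 34.1 CPM in fasted and 4.14, 7.10, 6.59 and 8.74 CPM in leptin libraries (log2 fold change -1.87, SE 0.33, FDR = 0.0114). *Fosb*, another AP-1 subunit, was at 17.5, 16.8, 14.5 and 23.5 CPM in fasted and 4.69, 5.92, 6.94 and 6.84 CPM in leptin libraries (log2 fold change -1.56, SE 0.24, FDR = 0.00594). In each gene the highest leptin library was below the lowest fasted one, although the fasted libraries spread widely in *Nr4a1* and *Npas4*.

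*Nr4a3* fell by 1.25 and *Btg2*, an antiproliferative factor, by 0.68 on the log2 scale. *Fos* was at 36.1, 55.2, 44.6 and 42.1 CPM in fasted and 28.4, 31.5, 26.0 and 32.6 CPM in leptin libraries (log2 fold change -0.59, SE 0.17, FDR = 0.163) and was called only with the block (log2 fold change -0.59, FDR = 0.0111). The call of *Nr4a3* was lost in 6 of 11 fits (without fasted replicates 1, 2 and 4 or leptin replicates 1, 2 and 3, log2 fold change -1.14 to -1.27, FDR up to 0.0893). Of 15 feedback regulators of MAP kinase signalling tested, 3 fell and 0 rose, at a median of -0.04, where 0.634% of all genes fell. *Dusp5*, a nuclear phosphatase of ERK, was at 5.34, 4.88, 4.07 and 4.57 CPM in fasted and 2.10, 1.30, 1.70 and 1.39 CPM in leptin libraries (log2 fold change -1.54, SE 0.17, FDR = 0.000668), and the Sprouty genes *Spry2* and *Spry4* fell by 0.54 and 0.56 on the log2 scale. The call of *Spry2* was lost in 1 of 11 fits (without fasted replicate 2, log2 fold change -0.47, FDR = 0.0302). That of *Spry4* was lost in 2 of 11 fits (without fasted replicate 4 or leptin replicate 1, log2 fold change -0.48 to -0.52, FDR up to 0.0529).

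The largest decrease was in a growth factor. *Fgf7* was at 5.77, 5.10, 6.43 and 3.00 CPM in fasted and 0.802, 0.942, 1.07 and 0.410 CPM in leptin libraries (log2 fold change -2.62, SE 0.38, FDR = 0.00413). The fed libraries of *Fgf7*, at 1.02, 0.702 and 0.209 CPM, lay in the range of the leptin libraries or below it.

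*Gpr6*, an orphan receptor that raises cyclic AMP without a ligand, was at 38.7, 31.1, 43.0 and 38.03 CPM in fasted and 12.4, 11.4, 16.0 and 9.84 CPM in leptin libraries (log2 fold change -1.60, SE 0.16, FDR = 0.000546). *Nmbr*, the receptor of neuromedin B, was at 13.8, 9.97, 11.4 and 6.62 CPM in fasted and 4.10, 3.22, 4.92 and 1.92 CPM in leptin libraries (log2 fold change -1.56, SE 0.31, FDR = 0.0240). *Krtap17-1* was at 2.42, 2.33, 2.53 and 1.57 CPM in fasted and 0.617, 0.460, 0.592 and 0.662 CPM in leptin libraries (log2 fold change -1.94, SE 0.31, FDR = 0.00743). For *Gpr6* and *Krtap17-1* the groups were well apart, and the call of *Nmbr* was lost in 5 of 11 fits (without fasted replicates 1, 2 and 3 or leptin replicates 1 and 2, log2 fold change -1.396 to -1.63, FDR up to 0.0863). *Dpys*, an enzyme of pyrimidine breakdown, and *Isg20*, an exonuclease, fell by 1.399 and 1.21 on the log2 scale from fasted levels near 2 CPM. The call of *Dpys* was lost in 3 of 10 fits (without fasted replicate 3 or leptin replicates 2 and 3, log2 fold change -1.31 to -1.44, FDR up to 0.0976). That of *Isg20* was lost in 1 of 8 fits (without leptin replicate 1, log2 fold change -1.17, FDR = 0.0508).

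**Figure D3:**
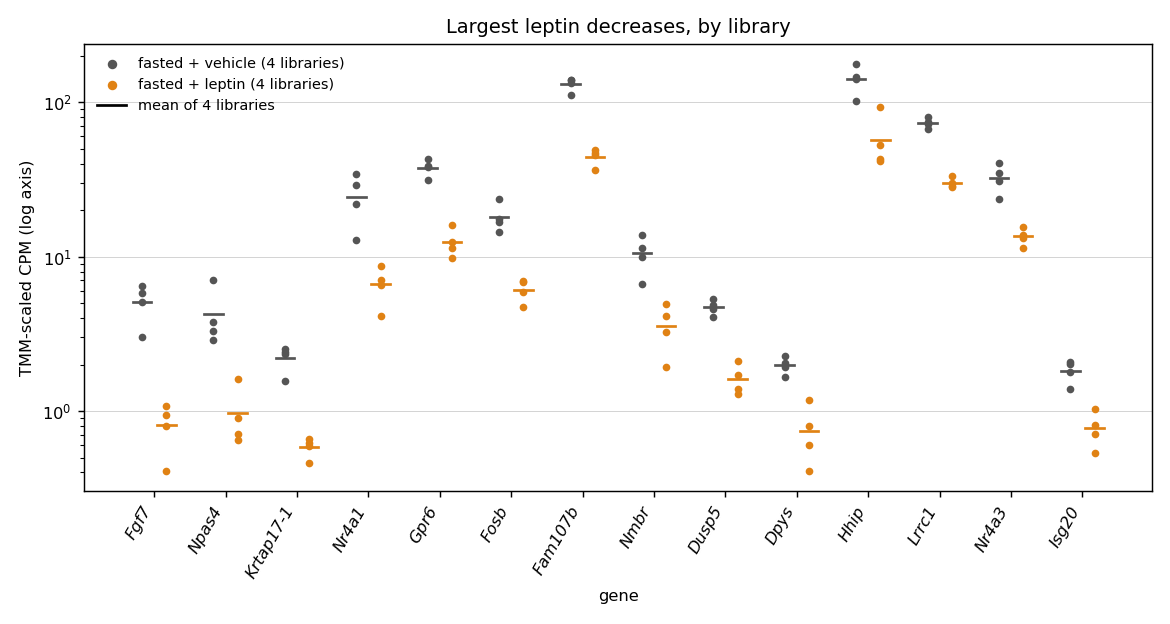
TMM-scaled CPM (y axis, log scale) in each of the 4 fasted (grey) and 4 leptin-treated (orange) libraries for 14 of the 15 genes with the largest decrease, with bars at the means of 4. The genes were chosen among those without overlap of the groups, and 3 of the genes (*Fam107b*, *Hhip*, *Lrrc1*) are above 60 CPM in every fasted library.

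Abundant transcripts that fell included adhesion, signalling and channel genes. *Fam107b* was at 134, 112, 138 and 139 CPM in fasted and 46.9, 45.2, 48.6 and 36.2 CPM in leptin libraries (log2 fold change -1.56, SE 0.14, FDR = 0.000252). *Lrrc1* was at 74.7, 66.6, 80.2 and 72.4 CPM in fasted and 28.6, 30.0, 33.2 and 28.0 CPM in leptin libraries (log2 fold change -1.29, SE 0.10, FDR = 0.000113). *Hhip*, which binds and restrains hedgehog ligands, was at 176, 145, 140.1 and 102 CPM in fasted and 52.5, 42.6, 92.4 and 41.4 CPM in leptin libraries (log2 fold change -1.30, SE 0.26, FDR = 0.0272). *Fam107b* and *Lrrc1* were tight within groups, whereas leptin replicate 3 of *Hhip* stood near the fasted values, and the call of *Hhip* was lost in 6 of 11 fits (without fasted replicates 1, 2 and 3 or leptin replicates 1, 2 and 4, log2 fold change -1.17 to -1.29, FDR up to 0.103).

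*Pcdh20*, a protocadherin, was at 481, 423, 528 and 406 CPM in fasted and 249.06, 255, 258 and 192 CPM in leptin libraries (log2 fold change -0.95, SE 0.16, FDR = 0.0114). *Noct*, a rhythmic phosphatase of NADPH, was at 112, 114, 131 and 104 CPM in fasted and 58.9, 72.9, 76.4 and 56.7 CPM in leptin libraries (log2 fold change -0.80, SE 0.11, FDR = 0.00373). *Pgr15l* was at 192, 148, 176 and 208 CPM in fasted and 108, 108, 112 and 99.3 CPM in leptin libraries (log2 fold change -0.76, SE 0.12, FDR = 0.00747), with fed libraries at 284, 298 and 220.3 CPM. The 3 genes separated without overlap, and fed values of *Pgr15l* were above all of the fasted ones. *Rrad*, a small GTPase that restrains calcium channels, fell by 0.74 on the log2 scale, with its call lost in 6 of 11 fits (without fasted replicates 1, 2 and 4 or leptin replicates 1, 2 and 4, log2 fold change -0.63 to -0.78, FDR up to 0.102).

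Among receptors for signals that control feeding, 2 of 36 tested rose and 3 fell, at a median log2 fold change of -0.07. The shares over all genes tested were 1.19% and 0.634%. *Mc3r*, the melanocortin 3 receptor, was at 51.3, 38.2, 45.8 and 49.3 CPM in fasted and 82.1, 74.7, 91.6 and 64.2 CPM in leptin libraries (log2 fold change 0.76, SE 0.15, FDR = 0.0206). *Npy1r* was at 34.1, 35.1, 33.8 and 34.8 CPM in fasted and 22.8, 28.9, 22.7 and 22.7 CPM in leptin libraries (log2 fold change -0.51, SE 0.09, FDR = 0.0122), and *Npy5r* was at 11.4, 10.5, 10.8 and 9.22 CPM in fasted and 7.25, 7.54, 7.22 and 5.49 CPM in leptin libraries (log2 fold change -0.60, SE 0.13, FDR = 0.0306). The groups did not overlap for these receptors, but the shifts were small. The call of *Mc3r* was lost in 5 of 11 fits (without fasted replicates 2 and 3 or leptin replicates 1, 2 and 3, log2 fold change 0.68 to 0.78, FDR up to 0.0707). That of *Npy1r* was lost in 5 of 11 fits (without fasted replicate 2, leptin replicates 1, 3 and 4 or fed replicate 4, log2 fold change -0.47 to -0.50, FDR up to 0.0472). That of *Npy5r* was lost in 8 of 11 fits (without fasted replicates 1, 2 and 3, leptin replicates 1, 2, 3 and 4 or fed replicate 3, log2 fold change -0.51 to -0.65, FDR up to 0.113). *Hcrtr2*, the orexin receptor 2, fell by 0.63 with its call lost in 10 of 11 fits (without fasted replicates 1, 3 and 4, leptin replicates 1, 2, 3 and 4 or fed replicates 1, 3 and 4, log2 fold change -0.47 to -0.69, FDR up to 0.132).

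*Ghsr*, the ghrelin receptor, was at 327, 234, 326 and 328 CPM in fasted and 271, 229, 271 and 217 CPM in leptin libraries (log2 fold change -0.30, SE 0.16, FDR = 0.698), and *Mc4r* was between 1.65 and 2.87 CPM in fasted and between 1.59 and 2.81 CPM in leptin-treated libraries (log2 fold change 0.09, SE 0.21, FDR = 1.00). Neither was called. The insulin, FoxO and AMPK list had 0 calls among 33 genes, with and without the block (median -0.03). *Insr* was between 94.7 and 121 CPM in fasted and between 90.9 and 118 CPM in leptin-treated libraries (log2 fold change -0.11, SE 0.10, FDR = 1.00). *Foxo1* was at 234, 177, 220.2 and 251 CPM in fasted and 184, 137, 155 and 153 CPM in leptin libraries (log2 fold change -0.49, SE 0.13, FDR = 0.108), where leptin replicate 1 lay inside the fasted range. Its log2 fold change with the block was -0.49 at an FDR of 0.00218, short of the size threshold.

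The peptides by which these neurons are known showed no call. *Agrp* was at 726, 1496, 2004 and 1233 CPM in fasted and 492, 1367, 2167 and 1009.7 CPM in leptin libraries (log2 fold change -0.12, SE 0.41, FDR = 1.00). *Npy* was at 869.6, 1925, 2996 and 2205 CPM in fasted and 540.1, 1884, 3153 and 1776 CPM in leptin libraries (log2 fold change -0.12, SE 0.49, FDR = 1.00), and *Vgf*, a granin, was at 1559, 1936, 2347 and 1601 CPM in fasted and 1363, 1802, 2869 and 1672 CPM in leptin libraries (log2 fold change 0.05, SE 0.23, FDR = 1.00). In these genes replicate 1 was the lowest and replicate 3 the highest library of both groups. Of 24 genes of peptides and their processing, 0 were called (median -0.10), and with the block *Grp* was called higher. *Pomc*, expressed by a neighbouring neuron type, was at 20.1, 17.9, 27.4 and 30.9 CPM in fasted and 29.8, 42.7, 44.7 and 39.6 CPM in leptin libraries (log2 fold change 0.71, SE 0.21, FDR = 0.177) and was called with the block (log2 fold change 0.73, FDR = 0.00167), while *Cartpt* was between 34.2 and 46.2 CPM in fasted and between 23.9 and 52.8 CPM in leptin-treated libraries (log2 fold change 0.00, SE 0.21, FDR = 1.00).

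Ion channel calls were mostly decreases. Of 76 potassium channel genes tested, 5 fell and 0 rose, at a median of -0.04, where 0.634% of all genes fell and 1.19% rose. *Kcnj5*, a channel opened by G proteins, was at 104, 73.9, 98.9 and 82.1 CPM in fasted and 48.7, 51.4, 63.5 and 43.1 CPM in leptin libraries (log2 fold change -0.80, SE 0.15, FDR = 0.0177). *Kcnj4*, an inward rectifier, was at 15.9, 15.6, 16.6 and 16.3 CPM in fasted and 9.32, 10.0, 11.4 and 10.7 CPM in leptin libraries (log2 fold change -0.64, SE 0.09, FDR = 0.00339). *Kcnab1*, an auxiliary subunit, *Kcna5*, a voltage-gated channel, and *Kcnk1*, a channel of the tandem-pore family, fell by 0.53, 0.56 and 0.69 on the log2 scale. *Kcnj4* was the tightest of these, with fasted values within 15.6 to 16.6 CPM. The call of *Kcnj5* was lost in 4 of 11 fits (without fasted replicates 1 and 3 or leptin replicates 1 and 2, log2 fold change -0.72 to -0.80, FDR up to 0.0703). That of *Kcnk1* was lost in 7 of 11 fits (without fasted replicates 1, 2 and 3, leptin replicates 1, 2 and 4 or fed replicate 1, log2 fold change -0.60 to -0.73, FDR up to 0.128). That of *Kcnab1* was lost in 3 of 11 fits (without fasted replicates 1 and 3 or leptin replicate 4, log2 fold change -0.48 to -0.49, FDR up to 0.0317).

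Of 45 ligand-gated channel genes 2 fell, the ATP receptors *P2rx4* (-0.73, FDR = 0.0488) and *P2rx5* (-0.91, FDR = 0.0477), at a median of -0.03. Both calls were close to the threshold in the fit without a block, and with the block both were kept (FDR = 0.000191 and 0.00572). That of *P2rx4* was lost in 8 of 11 fits (without fasted replicates 1, 2 and 3, leptin replicates 1, 2, 3 and 4 or fed replicate 1, log2 fold change -0.64 to -0.81, FDR up to 0.174). That of *P2rx5* was lost in 10 of 11 fits (without fasted replicates 1, 2 and 3, leptin replicates 1, 2, 3 and 4 or fed replicates 1, 3 and 4, log2 fold change -0.78 to -1.001, FDR up to 0.155). Of 53 sodium, calcium, HCN and TRP channel genes 1 rose, *Cacng5* (0.53, FDR = 0.0165), whose call was lost in 3 of 11 fits (without fasted replicates 2 and 3 or leptin replicate 1, log2 fold change 0.47 to 0.50, FDR up to 0.0612). Of 75 orphan and adhesion receptors 3 rose (*Gpr151*, *Gpr63* and *Adgrd1*) and 2 fell (*Gpr6* and *Gpr75*), with a median of -0.01. The call of *Gpr63* was lost in 2 of 11 fits (without fasted replicate 3 or leptin replicate 1, log2 fold change 0.78 to 0.79, FDR up to 0.0572). That of *Adgrd1* was lost in 4 of 11 fits (without fasted replicates 1, 2 and 3 or leptin replicate 1, log2 fold change 0.89 to 0.96, FDR up to 0.0728). That of *Gpr75* was lost in 10 of 11 fits (without fasted replicates 1, 2, 3 and 4, leptin replicates 1, 2 and 3 or fed replicates 1, 3 and 4, log2 fold change -0.41 to -0.56, FDR up to 0.143).

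Transcription factors and hormone receptors gave single calls. *Nr3c2*, the mineralocorticoid receptor, was at 23.9, 23.7, 25.1 and 30.2 CPM in fasted and 64.1, 50.7, 49.9 and 51.4 CPM in leptin libraries (log2 fold change 1.07, SE 0.11, FDR = 0.000411). Of 20 genes of the glucocorticoid list, *Nr3c2* rose and *Errfi1*, a feedback inhibitor of the EGF receptor, fell (log2 fold change -0.56, FDR = 0.0114), with a median of -0.18 for the list. With the block *Mt1* and *Mt2* rose and *Fkbp5* and *Zbtb16* fell. *Sox4* was at 56.2, 60.4, 47.8 and 37.8 CPM in fasted and 23.2, 24.2, 28.8 and 23.2 CPM in leptin libraries (log2 fold change -1.02, SE 0.16, FDR = 0.00574), and *Nr0b1*, the orphan receptor DAX1, was at 2.32, 1.29, 1.44 and 1.46 CPM in fasted and 5.56, 3.01, 3.48 and 3.72 CPM in leptin libraries (log2 fold change 1.28, SE 0.23, FDR = 0.0152). They were the calls among 32 identity factors of arcuate neurons. Of 18 clock genes 1 rose, *Bhlhe41* (0.78, FDR = 0.00918). The call of *Errfi1* was lost in 1 of 11 fits (without leptin replicate 4, log2 fold change -0.48, FDR = 0.0141). That of *Nr0b1* was lost in 2 of 11 fits (without fasted replicates 2 and 3, log2 fold change 1.17 to 1.23, FDR up to 0.0652).

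Among 67 axon guidance genes *Nrp1*, a co-receptor of semaphorins, *Ephb6* and *Sema3e* rose by 0.75, 0.56 and 0.74 on the log2 scale. *Efnb2*, an ephrin, was at 161, 133, 152 and 151 CPM in fasted and 100.0, 83.6, 95.1 and 87.2 CPM in leptin libraries (log2 fold change -0.71, SE 0.08, FDR = 0.00104), the single decrease of that list. Of 17 fibroblast growth factor genes, *Fgfr4* rose (1.47, FDR = 0.0195) and *Fgf7* fell. Of 254 solute carriers *Slc10a6* and *Slc41a1*, a magnesium transporter (0.71, FDR = 0.00937), rose and *Slc35f4* (-0.75, FDR = 0.00930) fell. These solute carrier counts are near the shares of all genes tested (1.19% and 0.634%). The call of *Nrp1* was lost in 2 of 11 fits (without fasted replicate 1 or leptin replicate 1, log2 fold change 0.70 to 0.73, FDR up to 0.0558). That of *Ephb6* was lost in 3 of 11 fits (without fasted replicates 3 and 4 or leptin replicate 1, log2 fold change 0.48 to 0.55, FDR up to 0.0623). That of *Sema3e* was lost in 7 of 11 fits (without fasted replicates 1, 2 and 3, leptin replicates 1, 2 and 3 or fed replicate 3, log2 fold change 0.62 to 0.79, FDR up to 0.128). That of *Fgfr4* was lost in 3 of 11 fits (without fasted replicates 2 and 3 or leptin replicate 3, log2 fold change 1.22 to 1.49, FDR up to 0.0691).

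Lists with 0 calls among the genes tested were those of cholesterol handling (30 genes, median log2 fold change 0.03), fatty acid oxidation (26, 0.01), the unfolded protein response (31, 0.01), the ER translocon (27, -0.04), activin, BMP and TGF-beta signalling (34, 0.02) and cytosolic ribosomal proteins (72, 0.01). Since only 1.19% of all genes rose and 0.634% fell, lists of this size can hold 0 calls without differing from all genes. The same holds for the insulin and peptide lists above. With the block, *Abca1* of the cholesterol list rose, and *Angptl4* of the fatty acid list and *Acvr1c* of the activin list fell. At unadjusted p under 0.05, 634 of all genes tested were higher and 590 lower with leptin, and DESeq2 called 160 of the 160 and 81 of the 85. Among 11 AgRP neuron markers *Serpina3c* rose and the median was -0.12, and with the block *Acvr1c* and *Otp* were called lower (log2 fold change -0.50, FDR = 0.0157, and log2 fold change -0.54, FDR = 0.000281).

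**Figure D4:**
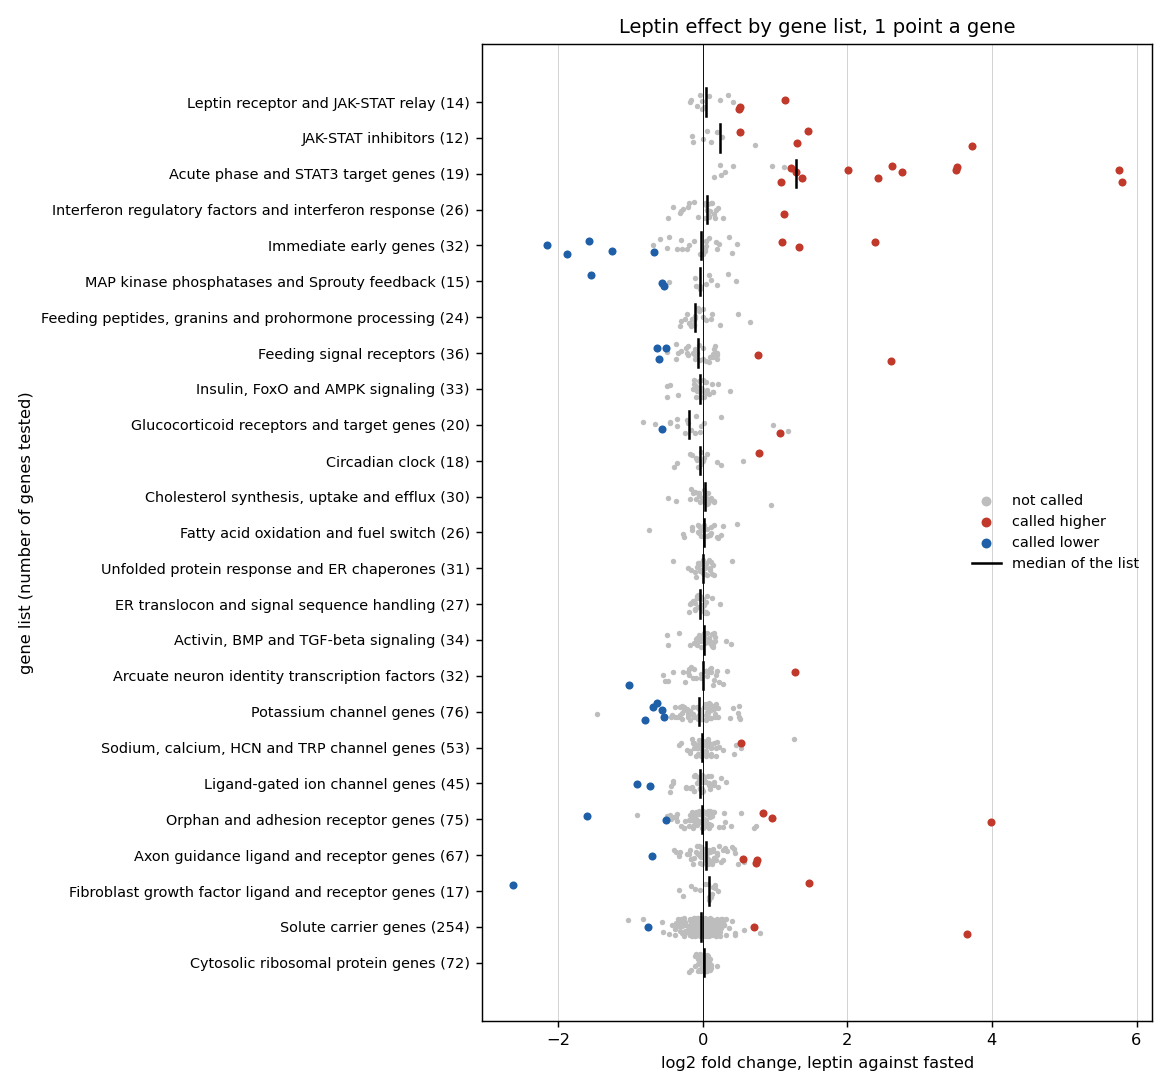
Log2 fold change of leptin against fasted (x axis) for each gene tested of 25 gene lists (y axis, with the number of genes), with red and blue points for genes that rose and fell and a black bar at the list's median. The acute phase and STAT3 target list has its median at 1.29, and the medians of the other lists lie between -0.18 and 0.23.

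The same contrast was taken in POMC neurons, the neighbouring neurons that restrain feeding, to see whether the response was shared. These libraries came from a POMC-IRES-Cre line, 2 fasted and 2 leptin-treated, with no library in common with the AgRP contrast. By edgeR's quasi-likelihood test 0 of 13412 genes were called in either direction (0%), with 115 higher and 36 lower at unadjusted p under 0.05, while 7 (0.0522%) rose and 1 (0.00746%) fell with the block and 9 rose and 1 fell with DESeq2. Of the 160 genes that rose in AgRP neurons, 142 were tested in POMC neurons and 119 of them (83.8%) had a log2 fold change above 0, with a median of 0.30, where 50.7% of all genes tested in both were above 0. Of the 85 that fell, 78 were tested and 42 (53.8%) were below 0, with a median of -0.02.

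*Socs3* was at 1.44 and 1.60 CPM in POMC fasted replicates 1 and 2 and 12.4 and 9.02 CPM in POMC leptin replicates 1 and 2, a log2 fold change of 2.82 (SE 0.26). *Atf3* was at 1.52 and 0.733 CPM in POMC fasted replicates 1 and 2 and 8.07 and 4.64 CPM in POMC leptin replicates 1 and 2, a change of 2.48 (SE 0.54). *Jun* was at 29.8 and 36.0 CPM in POMC fasted replicates 1 and 2 and 83.8 and 62.4 CPM in POMC leptin replicates 1 and 2, a change of 1.15 (SE 0.20). In *Atf3* and *Jun* the estimate in POMC neurons was close to that in AgRP neurons (2.38 and 1.10), and all 3 genes were called in POMC neurons with the block and with DESeq2, but not by the test without a block.

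*Rdh10* was at 13.9 and 10.8 CPM in POMC fasted replicates 1 and 2 and 15.1 and 11.0 CPM in POMC leptin replicates 1 and 2, a log2 fold change of 0.08 (SE 0.22) against 2.51 in AgRP neurons. *Gpr151* was at 0.846 and 1.12 CPM in POMC fasted replicates 1 and 2 and 1.32 and 1.37 CPM in POMC leptin replicates 1 and 2, a change of 0.46 (SE 0.34) against 3.99. *Fam107b* was at 20.4 and 20.4 CPM in POMC fasted replicates 1 and 2 and 17.5 and 22.5 CPM in POMC leptin replicates 1 and 2, a change of -0.03 (SE 0.17) against -1.56. For these genes the transcript was counted in the POMC libraries, for *Gpr151* only near 1 CPM, and the leptin libraries stood near the fasted ones. Which cells carried these reads was not tested.

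The difference between the 2 leptin effects was tested in a model of all 17 libraries. It was called for 6 genes upward (0.0447% of 13435) and 5 downward (0.0372%), and with the block for 45 (0.335%) and 57 (0.424%). The leptin effect was higher in AgRP neurons for *Rdh10* (difference 2.43, SE 0.26, FDR = 0.00242), *Gpr151* (difference 3.52, SE 0.46, FDR = 0.0151), *Il10ra* (difference 2.58, SE 0.40, FDR = 0.0413), *Drd1* (difference 1.71, SE 0.27, FDR = 0.0413) and *Sowahc* (difference 1.45, SE 0.24, FDR = 0.0453). It was lower for *Fam107b* (difference -1.54, SE 0.25, FDR = 0.0413), *Lrrc1* (difference -1.25, SE 0.20, FDR = 0.0413) and *Dusp5* (difference -2.02, SE 0.34, FDR = 0.0480). The other calls were *Megf6* upward and *Cited2* and *Rasl11a.2* downward, named here after their values were seen. These calls were fragile. Leaving out any 1 of the 17 libraries left 0 to 3 upward calls (0 without POMC leptin replicate 2), apart from AgRP leptin replicate 4, without which there were 6, and 0 to 2 downward calls.

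**Figure D5:**
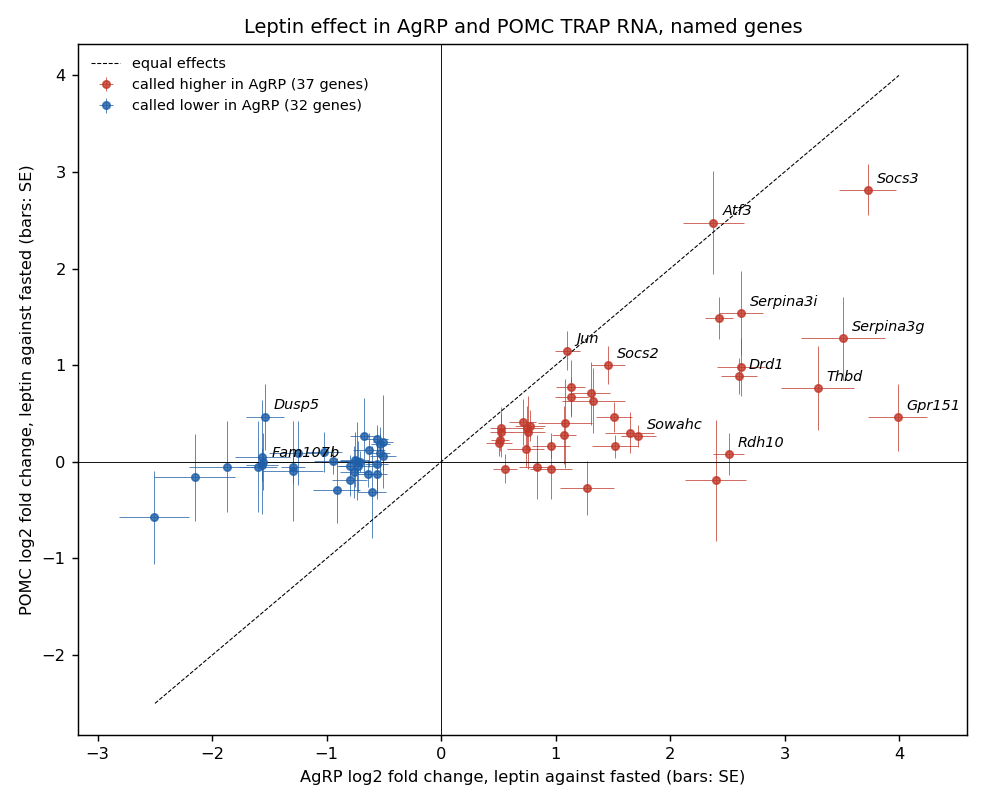
Log2 fold change of leptin against fasted in AgRP neurons (x axis) and in POMC neurons (y axis) for the 37 named genes that rose (red) and the 32 that fell (blue) in AgRP neurons and were tested in both, with SE bars and a dashed line of equal effects. *Atf3* and *Jun* lie on the line, *Socs3* somewhat below it, and *Rdh10* (0.08) and *Gpr151* (0.46) near 0 on the POMC axis.

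Open chromatin of AgRP nuclei was measured in other libraries of the same states by ATAC-seq, 2 per state. Of 102237 peaks 2462 (2.41%) were higher and 684 (0.669%) lower after leptin. For each gene 1 peak was taken, the one with the highest mean within 1 kb of a start site. That peak was called higher for 9 of 11697 genes (0.0769%), and other peaks near start sites were not counted. Of the 142 genes with a peak that rose in RNA, 4 had a higher peak (*Gpr151*, *Drd1*, *Slc10a6* and *Cpne8*) and 98 (69%) had a peak log2 fold change above 0, where 37.7% of all genes did. Of 79 genes with a peak that fell in RNA, 2 had a lower peak, *Fgf7* among them, and 14 (17.7%) were above 0. The median peak log2 fold change was 0.11 for the genes that rose, -0.18 for those that fell and -0.05 for all.

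The peak at the *Gpr151* start site had 6.08 and 5.93 CPM in fasted and 23.0 and 17.3 CPM in leptin-treated libraries (log2 fold change 1.74, SE 0.27, FDR = 0.000834). That of *Slc10a6* had 5.95 and 3.35 CPM in fasted and 17.4 and 15.3 CPM in leptin-treated libraries (log2 fold change 1.81, SE 0.31, FDR = 0.00235), and that of *Drd1* had 14.2 and 14.4 CPM in fasted and 26.3 and 24.1 CPM in leptin-treated libraries (log2 fold change 0.81, SE 0.21, FDR = 0.0394). In these 3 genes both leptin libraries were above both fasted ones. At the *Fgf7* start site the peak had 42.7 and 29.0 CPM in fasted and 19.9 and 19.8 CPM in leptin-treated libraries (log2 fold change -0.85, SE 0.22, FDR = 0.0391). The *Socs3* promoter peak was not called, with 57.9 and 77.6 CPM in fasted and 68.5 and 59.4 CPM in leptin-treated libraries (log2 fold change -0.08, SE 0.15, FDR = 0.884). The *Cul5* peak was not called either, with 40.5 and 41.7 CPM in fasted and 40.8 and 40.9 CPM in leptin-treated libraries (log2 fold change -0.01, SE 0.16, FDR = 0.993). Without leptin replicate 2 of the ATAC-seq, 7 peaks were lower, and without fasted replicate 1, 608 were higher, so the number of calls depended on single libraries.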

How the data were processed

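The deposited TRAP RNA-seq values used here are raw counts of reads, which the authors obtained with HISAT2 (mm10, GRCm38) and featureCounts, with gene models altered so that fewer transcripts overlap. For ATAC-seq the deposited values are raw counts per merged peak. Deposited CPM tables, and the other ATAC-seq, CUT&RUN and whole-arcuate samples, were not used here. Depth was 29901460 to 54511107 counts per AgRP library of the 2 groups, 25581041 to 38937168 in the 3 fed libraries, 30704075 to 45179694 in the 4 POMC libraries of the contrast and 8263234 to 17190963 per ATAC-seq library. By the methods of the study each library is a pool of ARCs, so p-values measure the spread between pools. No pair of RNA libraries of a group agreed within sampling noise.

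The tests used edgeR 4.0.16 (glmQLFit, glmQLFTest) in R 4.3.3, with TMM scaling, on features that averaged more than 1 CPM, and a model of the 3 states. A call required FDR below 0.05 together with a log2 fold change beyond 0.5 in size. SEs are those implied by the F statistic, CPM values are TMM-scaled, and RPKM divides them by the counted length. Tests were run on simulated counts with 1 fixed spread and no effect shared by same-numbered libraries. That is a check of the code and does not cover the shared deviations of these libraries. Peaks were assigned to genes within 1000 bases of a GENCODE M21 start site with GenomicRanges 1.54.1, taking the peak with the highest mean. Promoter windows of RefSeq (250 bases before to 50 after the start, GRCm38.p6) matched 9914 of 13401 gene symbols.

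Same-numbered fasted and leptin libraries deviated together from their group means (correlation of deviations 0.536 to 0.812, median 0.676, 4 pairs) while differently numbered ones had -0.638 to 0.62 (median -0.196, 12 pairs). Each same-numbered correlation was over 0.1, and by this low cut the numbers were taken to pair the samples. The ranges overlapped, since the highest differently numbered value (0.62) exceeded the lowest same-numbered value (0.536). The study's model has no block, which was kept, and blocked values are given where they change a call or a count. Calls lost with a library left out were therefore lost in the unpaired model. Among such genes, the FDR with the block and all libraries was 3.62e-05 for *Nptx2*, 0.000585 for *Npy5r*, 0.00309 for *Hcrtr2* and 0.0021 for *Hhip*. The block ended the call of *Gpr75*. Whether these calls hold with the block and a library left out was not tested.

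Named genes were, among called genes without overlap of the groups, the 20 largest increases, the 15 largest decreases and the 8 largest each way above a mean of 50 CPM, up to 4 called members each way of each list by FDR, and a set of leptin pathway and feeding genes; some are not reported here. The genes, lists and comparisons were chosen with earlier results of these data known. Alternatives were the replicate block, DESeq2 1.42.0, library size alone, RLE size factors, no filter on low counts, edgeR's older quasi-likelihood method, fits of fasted and leptin libraries alone, each library left out in turn, and, added after seeing the data, all libraries numbered 4 left out.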

Additional observations from a re-analysis of the deposited data

Results flagged for a closer look

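With all 17 libraries, the leptin effect differed between AgRP and POMC neurons, by the test of the difference itself, for 8 named genes. As described above, these calls were fragile when single libraries were left out. The difference on the log2 scale, AgRP minus POMC, was 3.52 for *Gpr151*, 1.71 for *Drd1*, 2.43 for *Rdh10*, 2.58 for *Il10ra* and 1.45 for *Sowahc*, and -1.54 for *Fam107b*, -2.02 for *Dusp5* and -1.25 for *Lrrc1*. *Il10ra* was under the expression filter of the POMC fit and has no POMC estimate of its own.

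In 15 named genes 1 library stood apart from the other 3 of its group by Dixon's criterion, which chance meets in about 1 in 20 groups. Named genes, of which 84 were called, have a fasted and a leptin group each, so a list of this length can arise by chance. In fasted libraries these were *Tnfrsf11b* (replicate 4 at 0.731 CPM, others 1.25 to 1.31), *C1qtnf7* (replicate 1 at 5.16, others 2.46 to 2.85), *Il10ra* (replicate 2 at 0.657, others 1.02 to 1.07), *Serpina3n* (replicate 3 at 694, others 622 to 633), *Nanos1* (replicate 4 at 119.7, others 69.7 to 74.7), *Spry2* (replicate 2 at 29.6, others 24.9 to 25.2), *Spry4* (replicate 4 at 92.8, others 72.0 to 74.8), *Nr0b1* (replicate 1 at 2.32, others 1.29 to 1.46) and *Ghsr* (replicate 2 at 234, others 326 to 328). In leptin-treated libraries they were *Pcdh20* (replicate 4 at 192, others 249.1 to 258), *Stat2* (replicate 1 at 19.4, others 13.6 to 13.8), *Npy1r* (replicate 2 at 28.9, others 22.7 to 22.8), *Npy5r* (replicate 4 at 5.49, others 7.22 to 7.54), *Nr3c2* (replicate 1 at 64.1, others 49.9 to 51.4) and *Insr* (replicate 4 at 118, others 90.9 to 95.5). Of these genes *Nanos1*, *Spry4*, *Tnfrsf11b*, *Pcdh20*, *Npy5r* and *Insr* had the outlying value in replicate 4, the number with the high *Slc1a2* level, whose part was not tested.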

How the results depend on the processing

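With the replicate number as a block, the counts of genes higher and lower were 242 and 148 in AgRP neurons, 7 and 1 in POMC neurons and 45 and 57 for their difference, and 3943 and 1931 peaks were called in ATAC-seq. With fasted and leptin libraries alone and no block, 135 genes rose and 74 fell, and 12 named genes lost their calls. The same libraries with the block gave 242 and 140 genes. Of 84 named and called genes the block ended 1 call, that of *Gpr75* (log2 fold change -0.50, FDR = 0.00327). DESeq2 gave 9 and 1 genes in POMC neurons, 26 and 13 for the difference and 1434 and 345 peaks. Library size alone gave 107 genes higher and 39 lower in AgRP neurons and 1 and 0 for the difference. It ended the calls of 24 named genes. Without a filter the difference counts were 2 and 0, and RLE size factors gave 3 lower. With 1 library left out, the AgRP counts ran from 114 to 179 higher and from 56 (without fasted replicate 1) to 83 lower, those of POMC neurons were 0 and 0 throughout, the difference ran from 0 to 6 and from 0 to 2, and ATAC-seq from 608 to 2896 and from 7 to 1458. Of the 84 genes 51 were called in all 11 such fits. No named gene that was called changed direction under any alternative. The cause of these shifts was not tested. Scaling moved the median of all genes by under 0.1 on the log2 scale, and 16 genes that rose had a fasted mean under 1 CPM, where counts limit the precision of the fold.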

Other observations

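Further called genes fall into families that no list above covers; they were picked after their values were seen, are given as values, and were not examined with libraries left out. Receptors for inflammatory cytokines that rose were *Il1r1* (log2 fold change 1.03, FDR = 0.00162), *Il13ra1* (0.70, FDR = 0.0194), *Tnfrsf1a* (0.55, FDR = 0.0110) and *Ltbr*, the lymphotoxin beta receptor (0.54, FDR = 0.0428), along with *Myd88*, the adaptor of IL-1 and toll-like receptors (0.80, FDR = 0.00700), and *Ripk1* (0.68, FDR = 0.00554). *Il6ra*, the ligand-binding chain of the IL-6 receptor, fell (-0.65, FDR = 0.0181). *Il6ra* was at 6.85, 6.31, 7.02 and 7.06 CPM in fasted and 4.01, 3.81, 4.11 and 5.46 CPM in leptin libraries. *Il1r1* was at 13.04, 9.42, 11.2 and 12.4 CPM in fasted and 25.6, 24.4, 23.3 and 20.7 CPM in leptin libraries.

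Other proteins with a SOCS box, the motif through which substrates are brought to CUL5, were *Asb4* (0.80, FDR = 0.0159) and *Wsb1* (0.63, FDR = 0.0110), which rose, and *Spsb1* (-0.80, FDR = 0.0307), which fell. *Asb4* was at 226, 164, 204 and 219 CPM in fasted and 366, 338, 435 and 277 CPM in leptin libraries, with fed libraries at 224, 251 and 199 CPM.

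Some serotonin and somatostatin receptors were called. *Htr1a* rose (0.77, FDR = 0.0195), whereas *Htr2a* (-1.09, FDR = 0.000733), *Htr6* (-0.72, FDR = 0.0137), *Sstr2* (-0.75, FDR = 0.00183) and *Sstr5* (-1.10, FDR = 0.00743) fell. *Htr1a* was at 26.1, 24.3, 24.97 and 36.3 CPM in fasted and 52.2, 40.9, 45.7 and 51.4 CPM in leptin libraries. *Sstr2* was at 20.5, 18.8, 18.2 and 17.3 CPM in fasted and 10.2, 11.8, 10.1 and 12.2 CPM in leptin libraries. *Htr2a* was at 45.3, 39.3, 38.8 and 31.2 CPM in fasted and 18.9, 19.7, 17.8 and 16.3 CPM in leptin libraries. The leptin and fasted libraries did not overlap in any of these 3.

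Genes of the extracellular matrix and its turnover that rose were *Lama4* (0.90, FDR = 0.00300), *Mmp2* (0.95, FDR = 0.0402), *Adam12* (1.26, FDR = 0.0423) and *Itga6* (1.11, FDR = 0.00749). *Icam1*, an adhesion molecule of inflamed endothelium and glia, rose as well (1.22, FDR = 0.00774) and was at 1.12, 1.65, 1.13 and 1.13 CPM in fasted and 3.12, 2.60, 3.42 and 2.71 CPM in leptin libraries.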
